A study of Rattus norvegicus with 11 samples.

Results

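The comparison described here sets hearts of exercised rats beside hearts of rats given canagliflozin, both after isoproterenol. It takes 6 of the 11 libraries of the series, chosen by their labels: 3 exercise libraries (numbered 103, 113 and 57) and 3 canagliflozin libraries (78, 133 and 143). All are from cardiac tissue of Sprague Dawley rats, and the rats of both groups had first been treated for 10 days with isoproterenol at a daily 5 mg/kg. The exercise group was then exercised for 60 min per day for 4 weeks, and the canagliflozin group was treated for 4 weeks with canagliflozin at a daily 3 mg/kg. The labels do not name canagliflozin for the exercised rats, while the title of the series speaks of the drug combined with exercise. Whether the exercised rats also received the drug cannot be told from the labels. The sources used here do not state the age or sex of the rats, the part of the heart or the kind of exercise, and nothing beyond the library numbers says that libraries came from separate animals. The p-values therefore measure the spread between these libraries, which may be technical.

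Isoproterenol is an agonist of beta-adrenergic receptors, and repeated dosing injures and remodels the rodent heart. Canagliflozin inhibits the sodium-glucose cotransporter SGLT2 of the kidney tubule, so that glucose is lost in the urine, and drugs of this class are used in heart failure. Aerobic exercise acts on the heart through workload and is known for physiological growth and for changes in fuel use. The comparison asks in which transcripts the hearts of the exercise and canagliflozin groups differ.

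The deposited table identifies genes by Ensembl rat ID, and the reference tables used here pair 0 of these IDs with a symbol. Genes are therefore given by ID, their known roles are not stated, and the cardiac, retinoid and cell type marker lists could not be looked up, so the tissue label was not checked against markers. Groups of genes are formed by gene model length and by level instead, 2 properties that the table itself gives.

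Total counts ranged from 15429710 to 22067337 in the exercise libraries and from 17327491 to 25034831 in the canagliflozin libraries. Between 16966 and 17703 genes had at least 1 count. The 10 most abundant genes took 34.3% of the counts in exercise library 57 and 34.0% in canagliflozin library 78, against 23.1 to 28.4% in the other 4 libraries. The TMM factors, which correct for such differences in composition, were 0.875 and 0.883 in libraries 57 and 78 and 1.0004 to 1.147 in the others. Within a group, pairs of libraries differed beyond counting noise (chi-square per degree of freedom, 30.6 to 175).

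The libraries did not all fall into the 2 groups by their overall profile. Pairs were compared by the root mean square of their differences in log2 CPM (CPM, counts scaled to a common library size after TMM correction, with a prior count of 2). This distance was 0.513 to 1.09 over the 6 pairs of libraries from the same group, with a median of 0.809. Over the 9 pairs of an exercise and a canagliflozin library it was 0.548 to 1.002, with a median of 0.812. The closest pair was exercise 103 with exercise 113, and the most distant pair, canagliflozin 78 with canagliflozin 143, also came from within a group. Canagliflozin library 78 lay on average 0.998 from the other canagliflozin libraries and 0.821 from the exercise libraries. Canagliflozin library 133 was also nearer to the exercise libraries, at 0.664 against 0.735, though it lay 0.902 from library 78 and 0.568 from library 143. The remaining libraries were nearer to their own group. Exercise libraries 103, 113 and 57 lay 0.631, 0.691 and 0.809 from it, against 0.713, 0.796 and 0.851 from the canagliflozin libraries. Canagliflozin library 143 lay 0.831 from its own group and 0.874 from the exercise libraries.

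**Figure D1:**
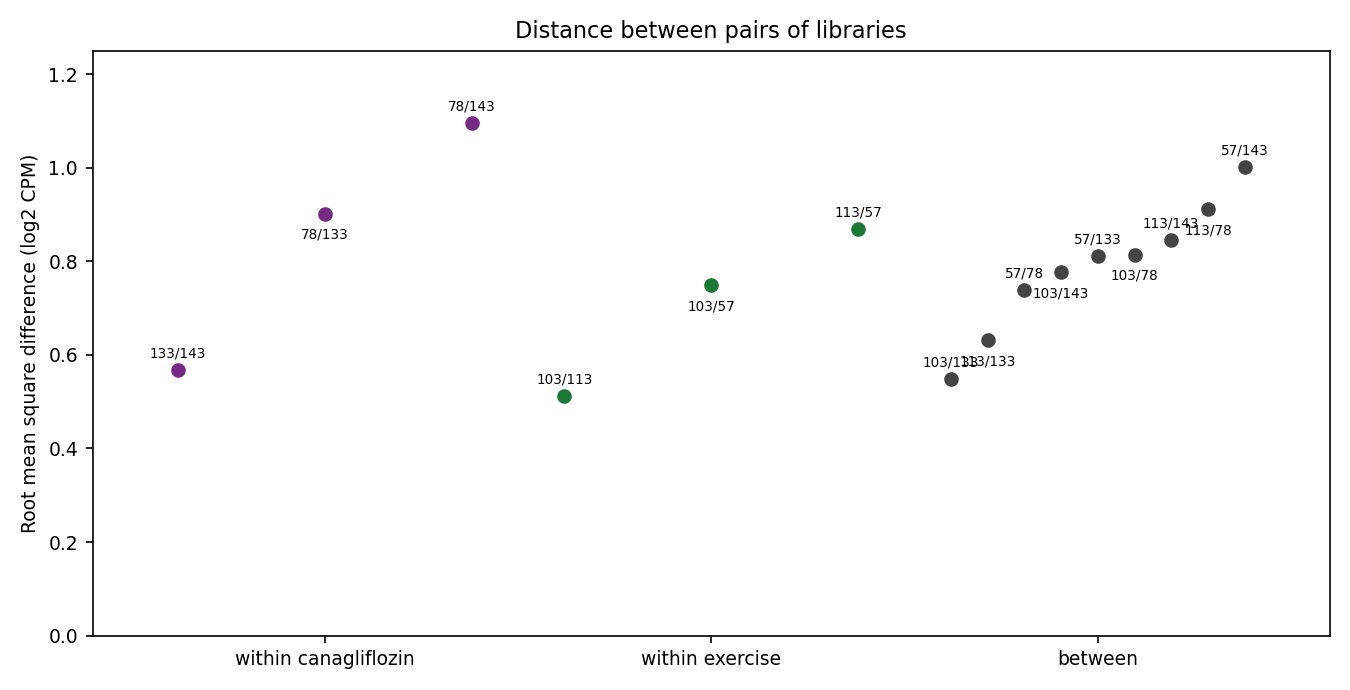
Root mean square difference in log2 CPM for each of the 15 pairs of libraries, by whether both come from the canagliflozin group, both from the exercise group, or 1 from each; numbers are library numbers. Pairs between groups lie at 0.548 to 1.002, inside the 0.513 to 1.09 of pairs within groups.

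No single gene passed the threshold of the main test. Fitted to these 6 libraries alone, edgeR's quasi-likelihood test left 0 of 14289 genes (0%) below a Benjamini-Hochberg adjusted p of 0.05, with 0.674 as the lowest value. Before adjustment, 948 genes (6.63% of those tested) had p below 0.05, where evenly spread p-values give 714. Of these, 442 genes (3.09%) were higher in the exercise group and 506 (3.54%) were higher in the canagliflozin group. limma-voom called 0 genes (0%), with 935 at an unadjusted p under 0.05. DESeq2 called 2 of 14279 genes (0.014%), 1 in each direction. The split by direction depended on the scaling: with library totals alone, 176 were higher and 715 lower in the exercise group, and with upper quartile scaling 357 and 647. Scaling by library totals alone moved the median log2 fold change of all genes from -0.03 to -0.14.

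Fold changes were about the size of their errors. The median size of a log2 fold change was 0.29, and the median standard error was 0.31. Only 504 genes (3.53%) differed by more than 2-fold in the fit, 134 higher in the exercise group and 370 lower. The genes past 2-fold had low levels in both directions, with a median of 2.05 CPM for the 134 and 1.90 CPM for the 370. Of the 134 higher genes, exercise library 113 held the highest value in 56, library 57 in 54 and library 103 in 24, and in 30 the highest library was at least 2-fold above the next. Canagliflozin library 143 held the highest value of the 6 libraries in 247 of the 370 lower genes, library 78 in 87 and library 133 in 36. In 112 of the 370 the highest library was at least 2-fold above the next. The 2 groups lay apart, with no overlap of libraries, in 107 of the 370 genes (28.9%) and in 54 of the 134 (40.3%), against 14.8% of all genes tested. A large fold in the same comparison chose these genes, so the higher shares are no finding.

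The 4 IDs of smallest p, 2 in each direction, are extremes of this comparison and not typical of its genes. Since a small p in this very comparison picked them, their separation is a description and adds no support. Their levels are given in CPM scaled over all 11 libraries, so that the isoproterenol-only and control libraries can be read beside them.

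ENSRNOG00000050998, with a gene model of 771 bases, had 25, 47 and 40 counts in exercise libraries 103, 113 and 57. It had 0, 1 and 2 counts in canagliflozin libraries 78, 133 and 143, where the 0 allows up to 3 counts. The exercise libraries were thus all well above the canagliflozin libraries, at a low level of 1.804 ± 0.255 CPM (SD, n = 3) against 0.0427 ± 0.0474 CPM (n = 3). The summed counts, 112 against 3, gave a ratio of 42.5 after scaling, with an exact 95% interval of 14.2 to 209 that covers counting error only. This ID passed the expression filter only through the exercise libraries, where it is high, and a small p then picked it. Its ratio, interval and p-values are therefore descriptions and add no support. Its edgeR adjusted p was 0.674 (log2 fold change 5.22, SE 0.705, which depends on the prior count at so few counts), and its DESeq2 adjusted p was 0.000763. The isoproterenol-only libraries 79, 98 and 119 had 2, 0 and 0 counts, like the canagliflozin libraries. The control libraries differed from each other, with 0 counts in library 115 and 14 in library 95, which is 1.62 CPM. Of the 8 libraries outside the exercise group, library 95 alone reached the level of the exercise group on this TMM scale. Its level rests on 14 counts and on the scaling of an unusual library. The 10 most abundant genes took 42.5% of its 14742164 counts, and its 14692 genes with a count were the fewest of the series.

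ENSRNOG00000002224, with a gene model of 1303 bases, was at 24.9, 22.9 and 27.2 CPM in exercise libraries 103, 113 and 57. In canagliflozin libraries 78, 133 and 143 it was at 13.8, 14.9 and 11.6 CPM, so that the groups did not overlap. The log2 fold change was 0.92 (SE 0.195), and the adjusted p was 0.674 in edgeR and 0.108 in DESeq2. Isoproterenol-only libraries 79, 98 and 119 were at 36.9, 17.4 and 20.5 CPM, on both sides of the exercise values and above all 3 canagliflozin values. Control libraries 115 and 95 were far apart, at 21.0 and 46.1 CPM.

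ENSRNOG00000004290, with a long gene model of 6462 bases, was lower in the exercise libraries. It was at 51.4, 47.6 and 45.7 CPM in exercise libraries 103, 113 and 57 and at 107, 88.8 and 92.2 CPM in canagliflozin libraries 78, 133 and 143. The log2 fold change was -0.98 (SE 0.192), and the adjusted p was 0.674 in edgeR and 0.00830 in DESeq2. Isoproterenol-only libraries 79, 98 and 119, at 64.1, 87.4 and 61.0 CPM, lay between the 2 groups, above every exercise library and below every canagliflozin library. Control library 115, at 46.4 CPM, lay among the exercise values, and control library 95, at 90.2 CPM, among the canagliflozin values.

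ENSRNOG00000015420, with a gene model of 3646 bases, was at 20.8, 22.03 and 21.5 CPM in exercise libraries 103, 113 and 57. It was at 40.4, 35.7 and 37.9 CPM in canagliflozin libraries 78, 133 and 143. The log2 fold change was -0.81 (SE 0.171), and the adjusted p was 0.674 in edgeR and 0.108 in DESeq2. Isoproterenol-only libraries 79, 98 and 119 were at 19.7, 22.9 and 28.9 CPM, around the exercise values and below the canagliflozin values. Control libraries 115 and 95 differed from each other, at 24.0 and 8.32 CPM. This gene had the tightest exercise group of the 4, with an SD of 0.598 CPM on a mean of 21.5 CPM.

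**Figure D2:**
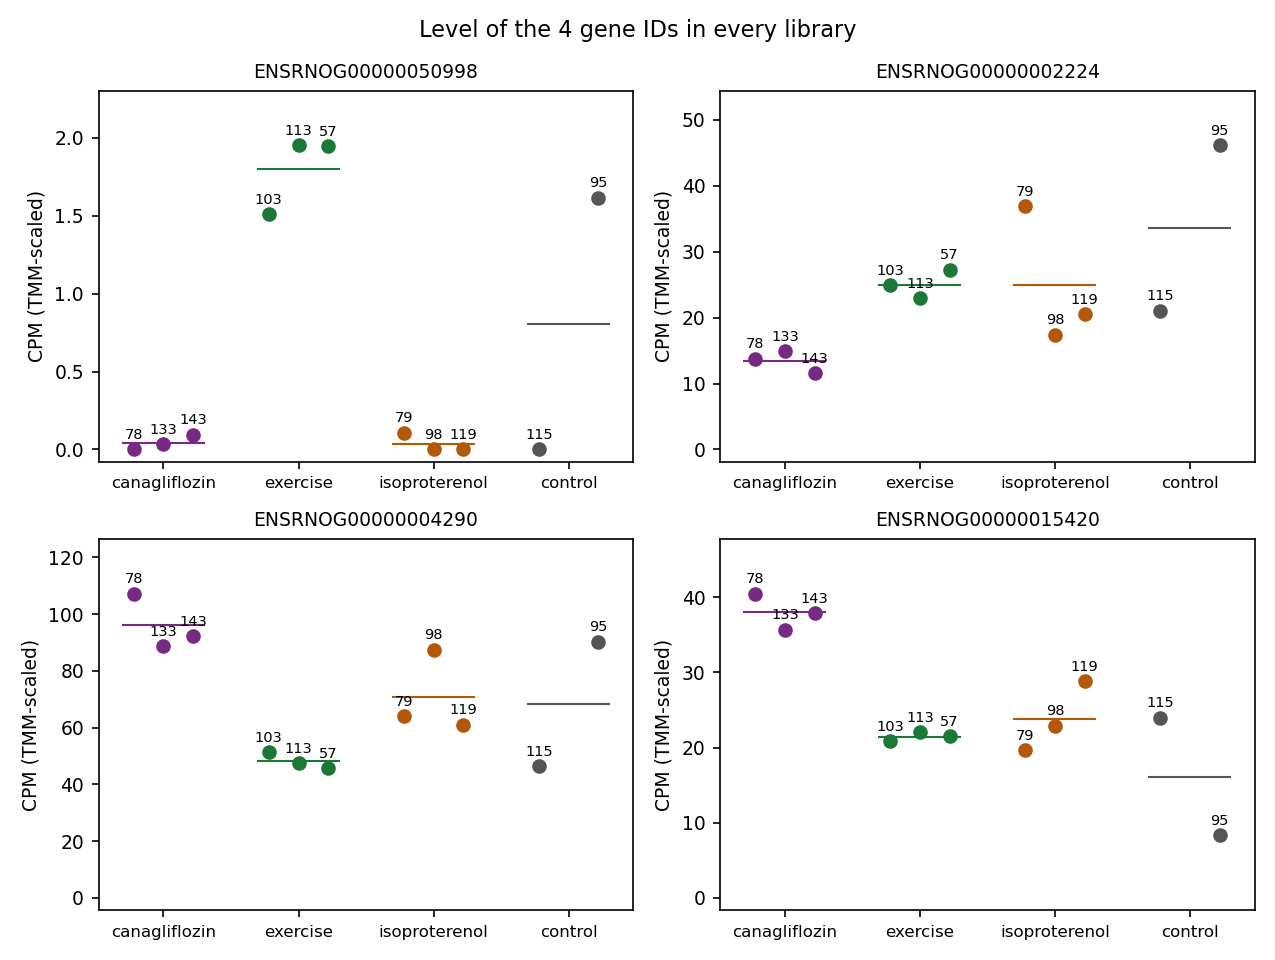
CPM (scaled over all 11 libraries) of the 4 gene IDs in each library, labelled by library number; horizontal lines are group means. In each panel the 3 exercise libraries lie apart from the 3 canagliflozin libraries, as for ENSRNOG00000050998 at 1.51 to 1.95 CPM against 0 to 0.0936 CPM.

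Since fold changes varied with gene length, these 4 were recomputed with an offset that takes out the length trend of each library. The log2 fold change of ENSRNOG00000004290 went from -0.98 to -0.73 (SE 0.231), and its DESeq2 adjusted p from 0.00830 to 0.52, so that its call ended. ENSRNOG00000050998 stayed called by DESeq2 at 0.00473, 1 of 5 genes called with the offset. ENSRNOG00000002224 went from 0.92 to 0.76 and ENSRNOG00000015420 from -0.81 to -0.69. With all 11 libraries in the DESeq2 fit, neither call was made, at adjusted p of 0.674 for ENSRNOG00000050998 and 0.841 for ENSRNOG00000004290. The DESeq2 call of ENSRNOG00000050998 also ended without canagliflozin library 143 (adjusted p 0.105), and without library 78 DESeq2 gave it no adjusted p. That of ENSRNOG00000004290 held without canagliflozin library 78 (adjusted p 0.00347) and ended without each of the other 5 libraries, with adjusted p of 0.0634 without exercise library 57, 0.0852 and 0.106 without canagliflozin libraries 133 and 143, and 0.302 and 0.519 without exercise libraries 103 and 113.

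A pattern across genes followed the length of the gene model: by their medians, short genes were higher in the exercise group and long genes in the canagliflozin group. Spearman's correlation of the log2 fold change with length, across 14289 genes that share the same 6 libraries, was -0.395. In the shortest quintile of genes, up to 1335 bases, the median log2 fold change was 0.24, and 71.2% of 2858 genes were higher in the exercise group. In the longest quintile, from 4372 bases, the median was -0.29, and 21.4% of 2858 genes were higher. The median fell at each step between, from 0.09 through -0.00265 to -0.14. Length accounted for 12.8% of the variance of the fold changes, through a spline on log2 length.

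**Figure D3:**
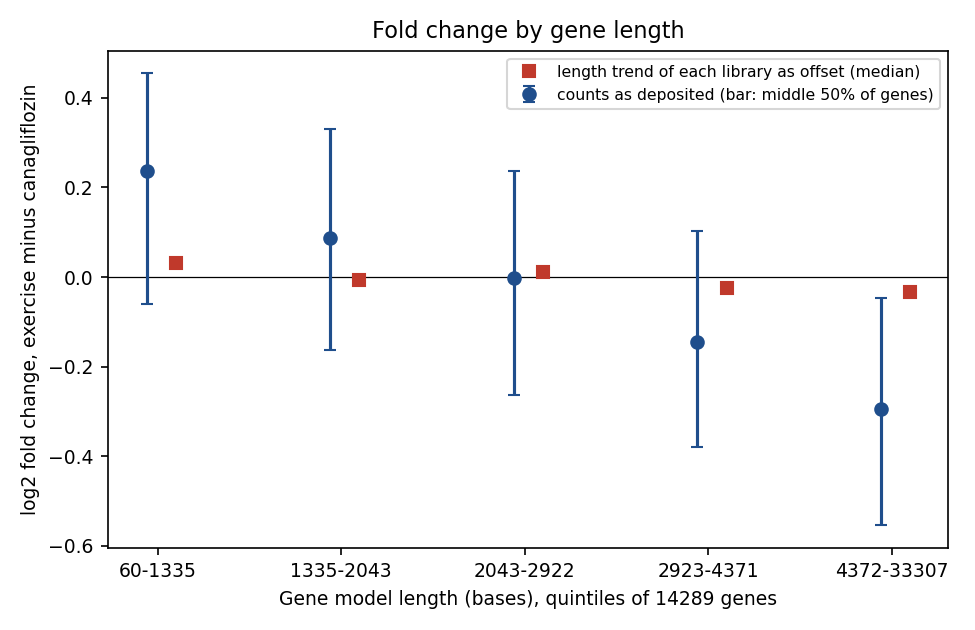
Median log2 fold change, exercise minus canagliflozin, in quintiles of gene model length; circles with bars are the median and the middle 50% of genes, and squares are medians once each library's length trend had entered the fit as an offset. The circles run from 0.24 in the shortest genes to -0.29 in the longest, and the squares stay between -0.03 and 0.03.

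The trend held at each level of expression. Spearman's correlation with length was -0.277, -0.494 and -0.51 in genes of low, middle and high level, each class with 4763 genes. In the class of high level the median log2 fold change was 0.35 in the shortest quintile and -0.24 in the longest. In the class of low level it was 0.08 and -0.38. Fold changes also went up with level, with a Spearman correlation of 0.19.

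The trend was not shared by all libraries of a group. Relative to the mean of the 6 libraries, the slope of log2 CPM per doubling of length was -0.0493, -0.0512 and -0.118 in exercise libraries 103, 113 and 57. In canagliflozin libraries 133 and 143 it was positive, at 0.0845 and 0.207. In canagliflozin library 78 it was -0.0737, between the exercise values. The group means were -0.0727 ± 0.0390 (SD, n = 3) and 0.0727 ± 0.141 (n = 3), and a 2-sided exact permutation test over the 20 assignments of libraries gave p = 0.3, where 3 against 3 cannot go below 0.1. With a Spearman correlation for each library in place of the slope the groups no longer overlapped, at -0.286 to -0.173 in the exercise libraries and -0.138, 0.287 and 0.419 in canagliflozin libraries 78, 133 and 143, with the smallest exact p that the permutations can give, 0.1.

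The same was seen in single length classes. Genes of the longest quintile were 0.35 above the mean of the 6 libraries in canagliflozin library 143 on the log2 scale and 0.12 above it in library 133, by their median. They stood at -0.05 in canagliflozin library 78 and at -0.07, -0.16 and -0.15 in exercise libraries 103, 113 and 57. Genes of the shortest quintile stood at -0.35 in canagliflozin library 143 and at 0.26 in exercise library 57. The longest quintile took 16.8% of the counts of canagliflozin library 143, 14.8% of library 133 and 11.3% of library 78, against 12.9, 12.9 and 10.4% in exercise libraries 103, 113 and 57 (exact permutation p = 0.3, n = 3 per group). For 7 measures of the libraries (length slope, longest minus shortest quintile, count shares of both, count share of the 10 most abundant genes, genes with a count and total counts) the Benjamini-Hochberg adjusted exact permutation p was 0.7 or more. Since no measure could go below 0.1 even before adjustment, these values do not show that the groups are alike.

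**Figure D4:**
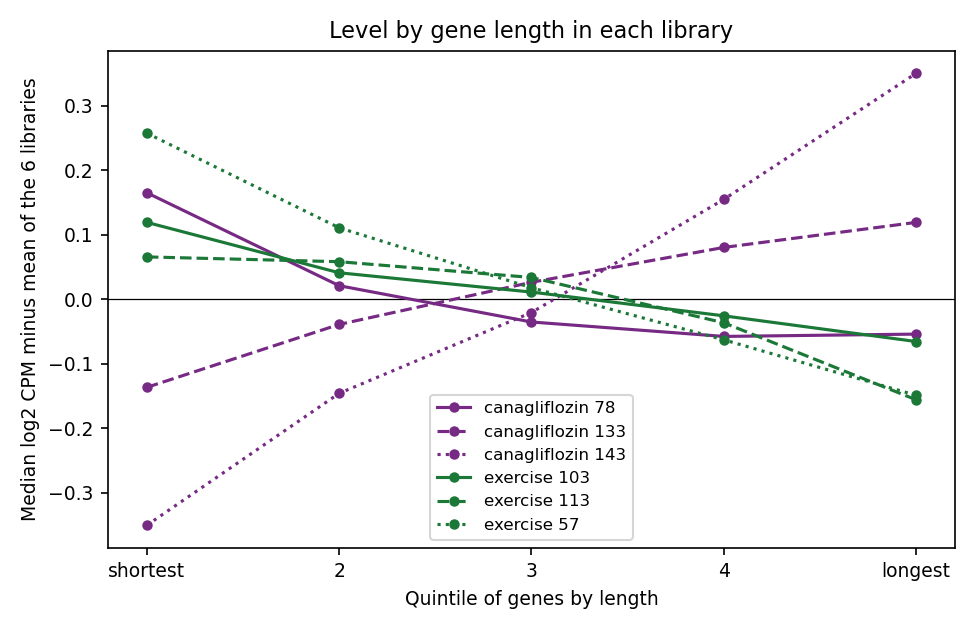
Median log2 CPM minus the mean of the 6 libraries, for genes in quintiles of length, 1 line per library. Canagliflozin 143 and 133 go up from short to long genes, from -0.35 to 0.35 and from -0.14 to 0.12, and canagliflozin 78 goes down with the exercise libraries, from 0.17 to -0.05.

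Pairs of libraries showed the trend to the same mixed degree. Spearman's correlation of length with the difference of an exercise and a canagliflozin library was -0.422 to -0.303 for the 6 pairs with canagliflozin 133 or 143. With canagliflozin 78 it was 0.0219, -0.000259 and -0.11 for exercise 103, 113 and 57. Within the canagliflozin group it was -0.221 and -0.321 for library 78 minus libraries 133 and 143, and -0.31 for library 133 minus library 143. Within the exercise group its size was at most 0.126. Beside them, on the scale of all 11 libraries, the slopes of isoproterenol-only libraries 79, 98 and 119 were -0.0444, -0.0728 and 0.0327, and those of control libraries 115 and 95 were -0.0331 and -0.363.

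Genes whose groups did not overlap followed length as well. The 3 exercise libraries lay entirely above or below the 3 canagliflozin libraries in 2120 genes (14.8%), 1019 higher (7.13%) and 1101 lower (7.71%) in the exercise group. Of the longest quintile, 540 genes (18.9%) were lower and 62 (2.17%) higher in all exercise libraries. Of the shortest quintile, 65 (2.27%) were lower and 315 (11.02%) higher. Genes at an unadjusted edgeR p under 0.05 were placed alike, with 314 lower and 24 higher in the longest quintile and 22 lower and 167 higher in the shortest.

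With the length trend of each library removed, the excess of long genes on the canagliflozin side was much smaller but not absent. Groups then did not overlap in 1734 genes (12.1%), 1036 higher and 698 lower in the exercise group. The longest quintile held 180 of the 698 lower genes, against 123 to 136 in each of the other quintiles. It held 216 of the 1036 higher genes, against 180 to 222. In edgeR with this trend as an offset, 0 genes were called, with a smallest adjusted p of 0.85, and 682 genes had an unadjusted p under 0.05, below the 714 of evenly spread p-values. Of these 682, 434 were higher and 248 lower in the exercise group, against 442 and 506 without the offset. The offset takes out any difference that follows length, whatever its source, and the source of the trend was not tested.

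**Figure D5:**
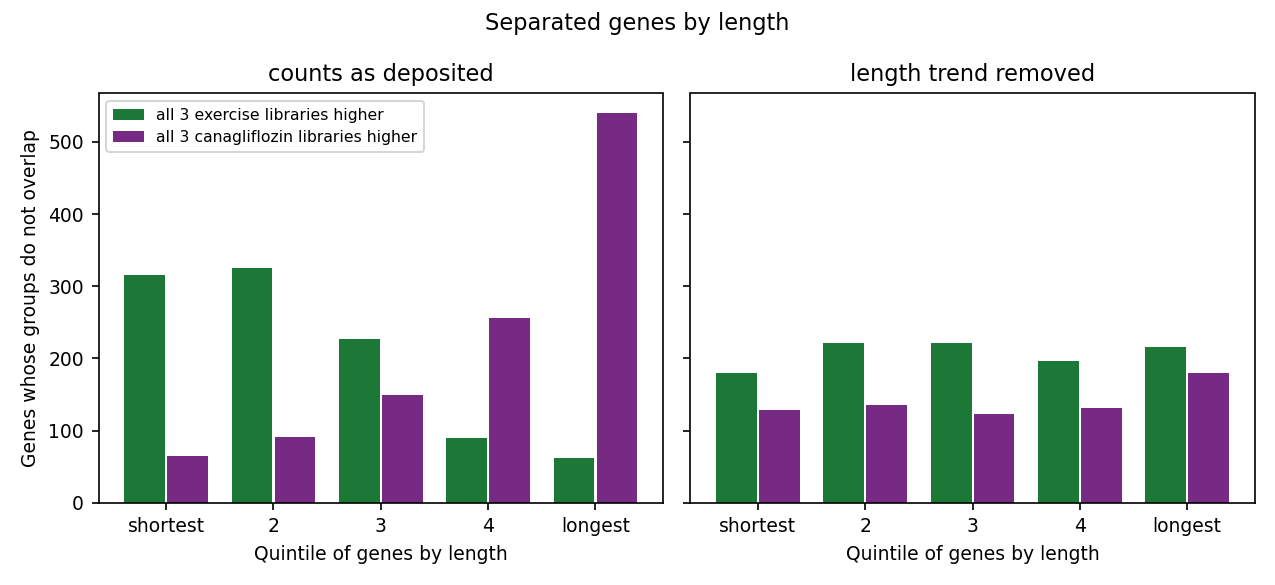
Number of genes in each quintile of length for which all 3 exercise libraries are higher (green) or all 3 canagliflozin libraries are higher (purple), from the deposited counts (left) and with the length trend of each library removed (right). In the longest quintile the counts are 62 and 540 on the left and 216 and 180 on the right.

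The isoproterenol-only libraries were then set beside the separated genes, to see which group lay further from isoproterenol alone. Over all genes, the mean distance of isoproterenol-only libraries 79, 98 and 119 was 0.760, 1.082 and 0.689 to the exercise libraries and 0.898, 1.118 and 0.785 to the canagliflozin libraries. Each was thus nearer to the exercise group by its mean distance, with no test of the difference. A mean distance to single libraries also grows with the scatter of their group. Canagliflozin pairs lay 0.568 to 1.09 apart and exercise pairs 0.513 to 0.868. These distances therefore cannot tell which group lay further from isoproterenol alone. In log2 CPM, the isoproterenol mean was nearer to the exercise mean in 598 of the 1019 genes higher in the exercise group (58.7%) and in 599 of the 1101 lower genes (54.4%), against 55.7% of all genes tested. These shares are close to that of all genes. They also differed between single libraries. With library 79 alone the share was 81.2% of the higher and 64.0% of the lower genes, against 60.3% of all genes. With library 119 it was 72.1 and 62.8%, against 54.3%, and with library 98 it was 33.1 and 42.4%, against 49.8%. With the length trend removed from the levels of these same 1019 and 1101 genes, the isoproterenol mean gave 67.9% for the higher and 45.0% for the lower genes. The share of all genes was then 56.7%. Single libraries again differed. Libraries 79, 98 and 119 gave 82.2, 39.4 and 76.2% of the higher genes and 55.0, 35.9 and 63.0% of the lower genes, against 59.5, 49.4 and 56.4% of all genes.

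The counts of differing genes moved with single libraries of both groups. The 948 genes at an unadjusted edgeR p under 0.05 became 364 without exercise library 113, 501 without exercise library 103 and 1176 without exercise library 57. They became 424 and 668 without canagliflozin libraries 143 and 133. In these fits evenly spread p-values give 722 to 732 genes. Without canagliflozin library 78, edgeR still called 0 of 14610 genes (lowest adjusted p 0.216). Of these, 2690 had an unadjusted edgeR p under 0.05, where evenly spread p-values give 730.5. DESeq2, which started from the same genes, called 610. Without both library 78 and library 57, in which the most abundant genes took the highest count shares, a choice made after the data had been seen, edgeR called 29 of 14405 genes, 9 higher and 20 lower in the exercise group. ENSRNOG00000050998 was the only 1 of the 4 gene IDs among them, with an edgeR adjusted p of 0.0456. Of these 29 genes, 27 had the same direction in the fit of 6 libraries, and 8 had an unadjusted p under 0.05 there. Among them, 17 of the 20 lower genes and 2 of the 9 higher genes were at or above the median length. The length trend over all genes was -0.394 in this fit, about as in the fit of 6 libraries. The shares of all lower and all higher genes above the median length were not computed. The placing of the 29 genes by length is therefore no finding about them. With 2 libraries left in each group, the spread behind these calls rests on few samples.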

How the data were processed

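RNA from cardiac tissue was sequenced, and the authors deposited 1 table of raw counts per Ensembl rat gene ID, per the file headers. The same deposited table gives FPKM, which was used only to recover the gene model length as count / (FPKM × library total). This length agreed between libraries within a relative 4.87e-05 for genes with 20 or more counts. CASAVA 1.8 and TopHat2 2.0.6 are named in the submitters' processing notes. The sources used here do not give the counting tool, strand setting, genome build or annotation, so overlapping genes and near-identical copies are uncertain.

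Libraries were matched to columns by the number in their titles. The 6 libraries were fitted alone in edgeR 4.0.16 under R 4.3.3, with filterByExpr, TMM factors, a robust quasi-likelihood fit and Benjamini-Hochberg adjustment over 14289 genes, called at 0.05. The standard errors given are the size of the edgeR log2 fold change divided by the square root of its quasi-likelihood F statistic. limma-voom (limma 3.58.1) and DESeq2 1.42.0 served as alternatives. The length offset was a natural spline with 4 degrees of freedom on log2 length, fitted to each library's log2 CPM minus the gene's mean. The scripts were tested on simulated data with less spread between libraries than these data have. That test does not show how many real differences the fit would miss here.

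The comparison and lists were chosen with earlier results of these data known. The rule for named genes asked for called genes, then for genes with a symbol and list members, and, with no symbols, for 2 IDs in each direction by the smallest p. The last part was applied, together with genes called by an alternative test. DESeq2's 2 genes were already among the 4. Lists of cardiac, fuel, retinoid, matrix, clock, inflammation, antioxidant, ribosomal and cell type marker genes were not analysed here, since 0 IDs matched.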

Additional observations from a re-analysis of the deposited data

How the results depend on the processing

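No paired analysis was possible because the 2 groups share no library number. edgeR called 0 genes in the fit of 6 libraries and in each planned edgeR and limma-voom alternative: other scalings, other filters, no robust estimation, 9 or 11 libraries, the length offset and each library left out in turn (lowest 0, highest 0). DESeq2 called 2, and edgeR without libraries 57 and 78 called 29. The count at an unadjusted p under 0.05, 948, ran from 364 without exercise library 113 to 2690 without canagliflozin library 78. It was 363 with all 11 libraries, where 34.7% were higher in the exercise group, and 3678 without libraries 57 and 78. It was 676 with the 9 isoproterenol-treated libraries, 1139 without a filter and 1214 with DESeq2. Its side of the number that evenly spread p-values give therefore depends on the fit. DESeq2 calls, 2 with 6 libraries, numbered 5 with the length offset, 1 with all 11 libraries and 1 to 610 with a library left out. The cause of these differences was not tested. The length trend, -0.395, was -0.44 to -0.254 with a library left out and weakest without a filter, at -0.242. The difference in length slope per library, -0.145, was -0.213 to -0.0761 with a library left out, with exact permutation p of 0.1 to 0.4. With the 10 most abundant genes left out, the trend was -0.399 and the slope difference -0.148. The planned removal of mitochondrially encoded genes was not run, since they could not be told by ID. The direction of the 4 gene IDs was the same in each alternative that tested them (ENSRNOG00000050998 was not tested with the filter at a mean of 1 CPM). Log2 fold changes were 4.75 to 6.45 for ENSRNOG00000050998, 0.76 to 0.99 for ENSRNOG00000002224, -1.08 to -0.73 for ENSRNOG00000004290 and -0.92 to -0.69 for ENSRNOG00000015420.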
